A study of Mus musculus with 12 samples.

Results

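The 41 genes described here encode the soluble hydrolases and the membrane proteins of the lysosome, with the transcription factor Tfeb that controls many of them. They were chosen by symbol from the 23420 genes of the count table and comprise 7 cysteine cathepsins, 4 other proteases, 12 glycosidases, 5 sulfatases, 5 lipid hydrolases and activators, 2 cholesterol exporters, 5 further membrane proteins and the 1 regulator. All 41 were present in the table and 40 passed the filter on low counts; Idua, the iduronidase of heparan and dermatan sulfate, did not. RNA of 12 kidneys from young adult male C57BL/6J mice, 4 kidneys per group, was sequenced as stranded mRNA libraries. The study asked how renal ischemia-reperfusion, with and without anaesthesia, changes the kidney transcriptome. The control group is composed of kidneys removed at nephrectomy, and both ischemic groups of kidneys taken 24 h after the renal pedicle was clamped for 20 min.

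Titles and group fields disagree for the 8 ischemic kidneys. In ischemia set A the title of each sample says anaesthetised and the group field says conscious, and in ischemia set B it is the reverse, so no direction is assigned to anaesthesia and the sets keep these neutral names. The labels also give the 20 min of ischemia and the 24 h for the controls. Since the control kidneys came from a nephrectomy, the effects of clamp surgery, of the delay and of ischemia itself cannot be told apart in any comparison with them. The study's protocol removes the right kidney and clamps the left, so the side may differ too. Whether the controls came from the clamped mice is not given, and the kidneys were treated as unpaired.

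Lysosomal hydrolases are made in the endoplasmic reticulum, tagged with mannose 6-phosphate in the Golgi and carried to an acidic compartment, where they digest proteins, glycans and lipids that arrive by endocytosis or autophagy. The proximal tubule, which takes up the protein filtered by the glomerulus, is among the most lysosome-rich epithelia of the body. Inherited loss of single hydrolases causes storage diseases, several of which involve the kidney, and TFEB and its relatives switch on lysosomal genes through a short palindromic element in their promoters.

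Total counts per kidney lay between 15367342 and 44793350, with medians of 32884589.5 for the controls, 27158369.5 for set A and 18181497.5 for set B. Levels are given as CPM, counts scaled to the library size with TMM factors, and 3 counts, taken as the detection floor, corresponded to 0.0661 to 0.190 CPM. This floor covers counting error only. Replicate 4 of set B stood apart from the other 11 kidneys on the second principal component of all genes, which held 12.2% of the variance. Some genes that most cells use had almost no counts in these libraries, with 0 to 43 counts of B2m and 0 to 21 counts of Cst3 per kidney, so a low count of a gene cannot be read as low expression. Of the 41 lysosomal genes, 12 had 3 counts or fewer in at least 1 kidney (Ctsf, Ctss, Ctsz, Gla, Gusb, Idua, Manba, Aga, Arsa, Arsb, Gm2a and Npc2), and Arsb alone of these passed the edgeR test in any comparison.

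Most of the abundant lysosomal transcripts fell after ischemia, and cathepsin D alone rose with edgeR (DESeq2 also called Scarb2 higher in set B, and Gla, which passed the filter on low counts through ischemic kidneys alone, so that nothing is read from its call). With edgeR's quasi-likelihood F-test, adjusted over all 11664 genes tested by the method of Benjamini and Hochberg at a threshold of 0.05, 15 of the 40 tested members fell (37.5%) and 1 rose in set A against control. Of all genes tested, 11.7% fell and 10.5% rose in that comparison. In set B against control 14 members fell (35.0%) and 1 rose, where the background was 11.9% and 10.9%. The same 12 members fell in both sets (30.0%, against 9.49% of all genes): Ctsh, Ctsa, Tpp1, Glb1, Gaa, Man2b1, Fuca1, Neu1, Galns, Lipa, Lamp2 and Mcoln1. Hexa, Smpd1 and Psap passed the test in set A alone, Arsb and Lamp1 in set B alone, and 22 members passed in neither. The median log2 fold change of the 40 members was -0.82 for set A and -0.73 for set B, and that of all genes -0.02 in each. Both comparisons share the same 4 control kidneys and are therefore not independent. Without replicate 4 of set B, 12 members fell in set B and the median was -0.95.

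In all 8 ischemic kidneys 13 of the 40 members lay below every control (32.5%, against 11.7% of all genes), and Ctsd alone lay above every control (8.43% of all genes did). Ctsd was also the 1 member to rise in both sets, as 9.07% of all genes did. Most calls fell on the more abundant transcripts. Of the 18 members with a mean of at least 20 CPM, a limit chosen after the values were seen, 13 fell and 1 rose in set A, where 22.0% of all genes at that level fell and 19.6% rose; in set B 11 fell and 1 rose, against 21.8% and 19.9%. Of the 22 tested members below that limit 2 fell in set A (9.09%, against 4.19% of all genes below it) and 3 in set B (13.6%, against 4.67%), and none rose, beside 3.89% and 4.25% of all genes below it.

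These are bulk libraries, in which fewer cells of a type and less RNA per cell cannot be told apart. All 15 proximal tubule markers fell in both sets (9.49% of all genes did), with medians of -2.71 and -2.82 on the log2 scale. For Slc7a13, 4 controls and 2 kidneys of set A but 0 of set B reached the level of the filter on low counts. The summed level of the 15 markers was 9460 to 10349 CPM per control kidney, 1430 to 2376 CPM per kidney of set A and 774 to 2359 CPM per kidney of set B, with no marker at 0 in all 12 kidneys. The part of this shift in the fall of the lysosomal transcripts was not tested.

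**Figure D1:**
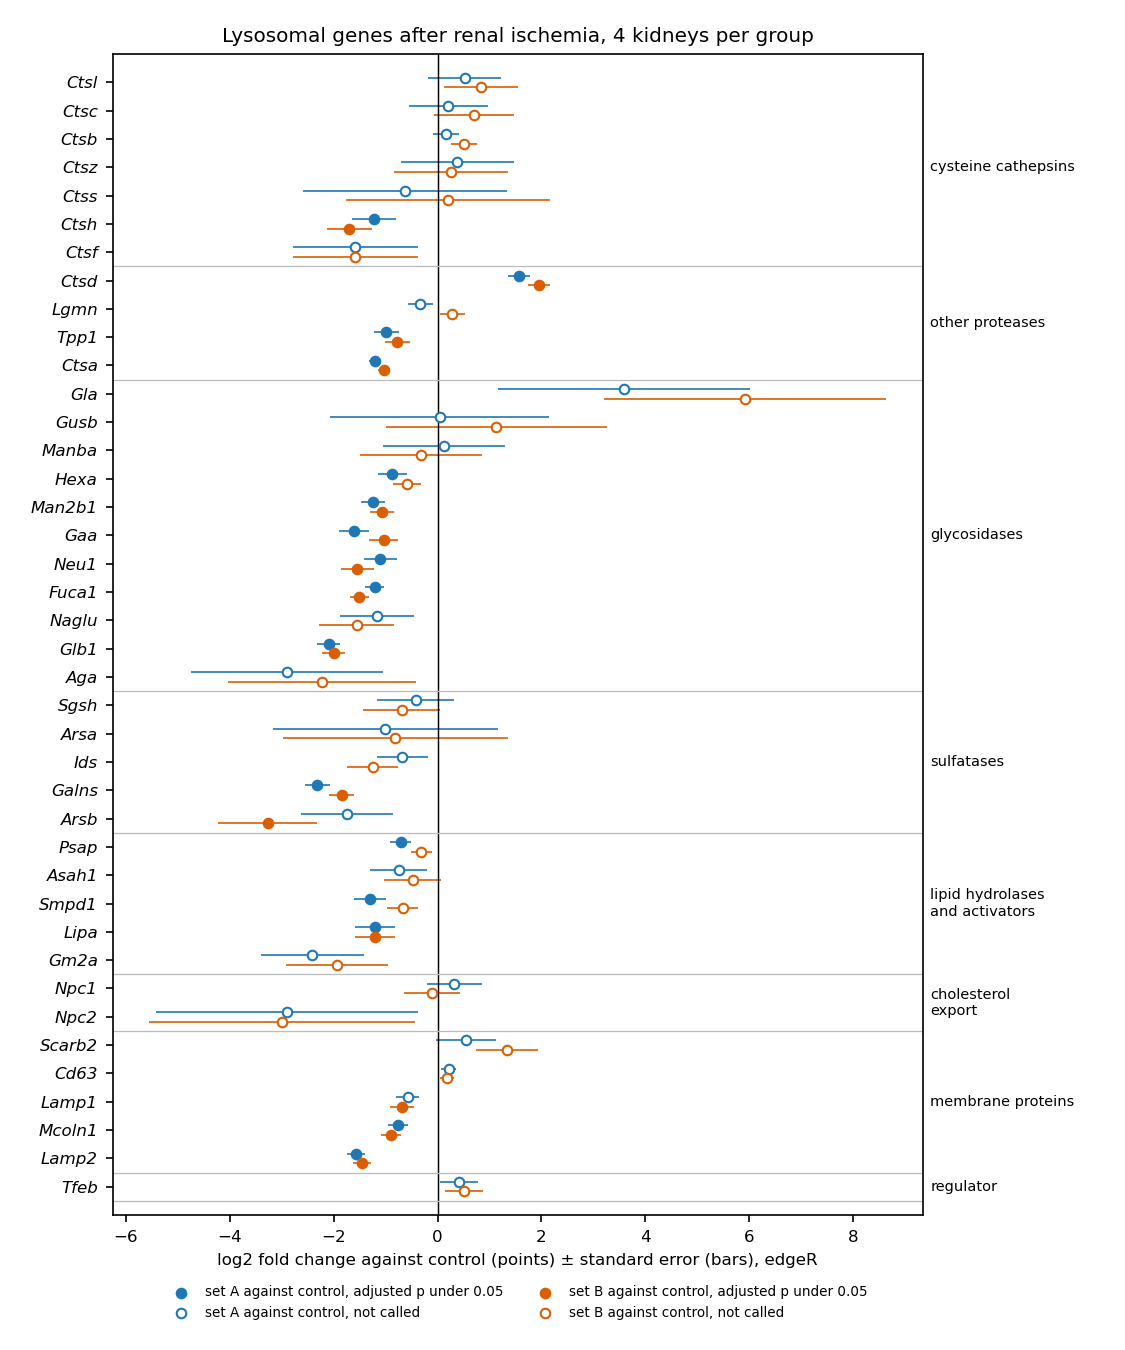
Log2 fold change against control (x axis, points, with bars of 1 standard error from edgeR) of the 40 tested lysosomal genes, ordered by class, for set A (blue) and set B (orange); filled points have an adjusted p under 0.05. The filled points lie left of 0 for every gene but Ctsd, and the widest bars belong to genes with few counts such as Gla, Npc2 and Gusb.

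The promoters of some of these genes hold the element that TFEB and its relatives bind. A core of 7 bases, TCACGTG, was searched on both strands in the 250 bases before each start site in RefSeq (GRCm38.p6), so that a copy reads TCACGTG or CACGTGA. It includes the general E-box CACGTG, and the windows of 35 of the 41 genes were matched by symbol (not those of Ctsb, Ctsh, Aga, Galns, Asah1 and Npc1). It was found in 11 of the 35 genes (31.4%: Arsa, Ctsa, Ctsd, Gaa, Gla, Glb1, Lamp1, Lgmn, Mcoln1, Naglu and Sgsh) or 27.5% of their 40 promoters, while 3.13% of all 32851 promoters of that length and 3.64% of those of protein-coding genes held it. The shorter CACGTG was found in 13 of the 35 genes (37.1%; 32.5% of their promoters, against 6.02% of all). The promoters of the riser Ctsd, of 4 genes that fell in both sets and of Lamp1 are shown, with each copy of the core in capitals, because they place the same letters before genes that moved in opposite directions. The windows are chr7:142387828-142388077 on the minus strand for Ctsd and, on the plus strand, chr2:164833523-164833772 for Ctsa, chr9:114400828-114401077 for Glb1, chr11:119267713-119267962 for Gaa, chr8:3500269-3500518 for Mcoln1 and chr8:13158911-13159160 for Lamp1.
Ctsd: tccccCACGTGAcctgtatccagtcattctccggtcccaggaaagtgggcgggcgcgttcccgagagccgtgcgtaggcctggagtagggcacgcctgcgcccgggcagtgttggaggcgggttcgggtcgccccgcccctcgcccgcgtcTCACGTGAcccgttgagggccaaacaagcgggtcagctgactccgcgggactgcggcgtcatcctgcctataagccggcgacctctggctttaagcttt
Ctsa: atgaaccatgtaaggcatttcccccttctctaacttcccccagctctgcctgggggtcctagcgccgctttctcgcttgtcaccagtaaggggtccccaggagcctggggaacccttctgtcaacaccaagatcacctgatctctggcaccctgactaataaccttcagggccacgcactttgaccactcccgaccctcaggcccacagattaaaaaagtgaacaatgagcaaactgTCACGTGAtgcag
Glb1: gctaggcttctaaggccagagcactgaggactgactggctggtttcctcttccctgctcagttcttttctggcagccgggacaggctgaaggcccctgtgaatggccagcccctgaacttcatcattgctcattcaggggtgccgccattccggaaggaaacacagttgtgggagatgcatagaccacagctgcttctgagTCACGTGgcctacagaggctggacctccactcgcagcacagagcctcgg
Gaa: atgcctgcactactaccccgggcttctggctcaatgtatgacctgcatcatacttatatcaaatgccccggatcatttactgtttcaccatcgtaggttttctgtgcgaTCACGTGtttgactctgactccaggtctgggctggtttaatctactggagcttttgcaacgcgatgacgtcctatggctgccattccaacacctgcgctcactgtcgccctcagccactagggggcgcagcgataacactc
Mcoln1: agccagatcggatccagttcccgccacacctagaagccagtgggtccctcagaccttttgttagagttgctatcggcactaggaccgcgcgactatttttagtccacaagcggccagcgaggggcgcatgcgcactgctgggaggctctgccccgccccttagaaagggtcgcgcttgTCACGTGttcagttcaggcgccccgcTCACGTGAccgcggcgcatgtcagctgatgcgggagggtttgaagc
Lamp1: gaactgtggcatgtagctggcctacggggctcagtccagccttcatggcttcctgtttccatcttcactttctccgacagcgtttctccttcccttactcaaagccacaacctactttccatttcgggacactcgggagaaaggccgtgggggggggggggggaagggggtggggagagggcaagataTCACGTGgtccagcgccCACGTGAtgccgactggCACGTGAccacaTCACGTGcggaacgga

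Ctsd and Mcoln1 each held 2 copies, Lamp1 4, and Ctsa, Glb1 and Gaa 1. The copy nearest the start lay 5 bases before it in Ctsa, 9 in Lamp1, 38 in Mcoln1, 42 in Glb1, 91 in Ctsd and 134 in Gaa. Ctsa has 2 start sites in RefSeq, and only the window of 1 of them, shown here, held the core. That window lies inside the span of Ctsa in GENCODE M21. Among the genes with a matched window, the core was found in 4 of 10 that fell in both sets, in the 1 that rose, in 1 of 5 that changed in 1 set and in 5 of 18 that changed in neither. A match is a description of the sequence and no evidence of binding.

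Of the 7 cysteine cathepsins, proteases named for the cysteine of their active site, 1 changed (14.3% in each set, against 11.7% and 11.9% of all genes that fell). Ctsh (mm10 chr9:90054152-90076089, plus strand), an aminopeptidase that also cuts inside proteins, fell in both sets. Its level was 18.6, 17.2, 15.4 and 22.97 CPM in the 4 controls, 10.95, 6.21, 5.66 and 8.91 CPM in the kidneys of set A and 7.95, 2.34, 4.69 and 7.87 CPM in those of set B. All 8 ischemic kidneys were below the controls, and the log2 fold change was -1.23 ± 0.43 (SE; adjusted p = 0.0457, edgeR) in set A and -1.70 ± 0.43 (adjusted p = 0.00689) in set B. The call in set A was lost with RLE scaling (adjusted p = 0.0511), with total counts (0.0508), without the filter on low counts (0.0603), with limma-trend (0.0539) and without any 1 of the 4 controls or the 4 kidneys of set A (0.0507 to 0.141), while its direction stayed.

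Ctsb, the most abundant of the 7 per kilobase, was measured at 28.1 ± 6.99 CPM (mean ± SD, n = 4) in the controls, 31.7 ± 8.22 CPM in the kidneys of set A and 40.1 ± 5.22 CPM in those of set B, a log2 difference of 0.17 ± 0.25 and 0.51 ± 0.25 that did not pass the test. Ctsl, the endopeptidase known for its broad specificity, gave 0.52 ± 0.70 and 0.83 ± 0.71, and Ctsc, which activates granule proteases, 0.21 ± 0.76 and 0.71 ± 0.77. None of the other members of the class passed in either set. Ctss, an elastase of antigen-presenting cells, Ctsz and Ctsf averaged under 6 CPM in every group and each had a kidney at 0.

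Cathepsin D (Ctsd, mm10 chr7:142375911-142388038, minus strand), the main aspartic protease of the lysosome, rose in both sets. Its level was 69.7, 51.4, 63.8 and 81.3 CPM in the controls, 194, 169, 174 and 251 CPM in the kidneys of set A and 158, 251, 249 and 372 CPM in those of set B. Every ischemic kidney was above every control, replicate 4 of set B being the highest, while the kidneys of sets A and B overlapped. The mean rose 2.96-fold in set A (log2 fold change 1.56 ± 0.21, adjusted p = 1.53e-05, edgeR) and 3.86-fold in set B (1.95 ± 0.22, adjusted p = 1.27e-06). The mm10 annotation of GENCODE M21 places a second gene, Gm49369, on the same strand over 808 of the 2351 exonic bases of Ctsd (34.4%), and how reads of that stretch were counted is not given in the sources used here.

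Cathepsin A (Ctsa, mm10 chr2:164832873-164841032, plus strand), a serine carboxypeptidase, had the highest level per kilobase of the 41 genes in controls and was lower in all 8 ischemic kidneys. It was measured at 708, 738, 709 and 711 CPM in the controls, 308, 361, 278 and 294 CPM in the kidneys of set A and 406, 314, 334 and 346 CPM in those of set B. The controls lay within a narrow band, with an SD of 14.2 CPM around a mean of 717 CPM, and the fall was 2.31-fold in set A (log2 -1.21 ± 0.12, adjusted p = 2.36e-07, edgeR) and 2.05-fold in set B (-1.03 ± 0.12, adjusted p = 1.72e-06). Exons of Pltp and Neurl2 overlap Ctsa on the opposite strand over 10.5% and 6.87% of its exonic bases.

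Ctsd and Ctsa were also compared within each library. The number of Ctsd counts per Ctsa count, a ratio that no scaling touches and that was chosen after the values were seen, was 0.0931 ± 0.0186 (SD, n = 4) among the controls, 0.643 ± 0.157 among set A and 0.752 ± 0.282 among set B. It ranged from 0.0697 to 0.114 in the controls and from 0.388 to 1.08 over the ischemic kidneys, without overlap. The summed level of the 41 genes went from 2323 ± 65.3 CPM among the controls to 1323 ± 120.5 CPM for set A and 1471 ± 49.7 CPM for set B, and without Ctsa from 1607 ± 70.7 CPM to 1012 ± 87.1 CPM and 1121 ± 13.9 CPM. They made up 0.224 to 0.237% of all counts of the controls, 0.119 to 0.149% of set A and 0.139 to 0.152% of set B.

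**Figure D2:**
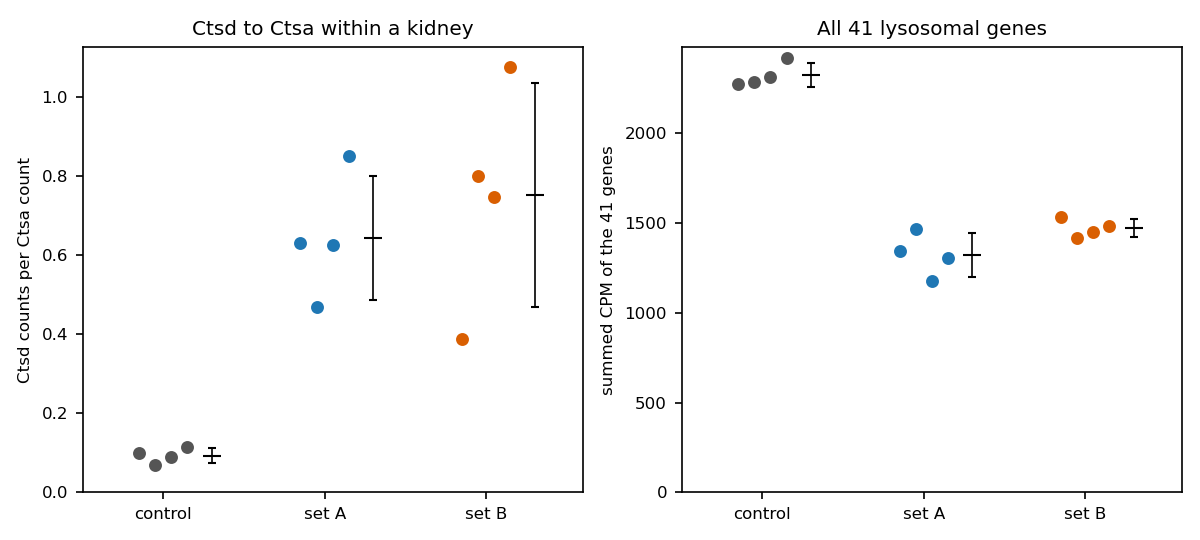
Ctsd counts per Ctsa count in each kidney (left) and the summed CPM of the 41 lysosomal genes in each kidney (right), with 1 point per kidney and the mean ± SD of each group (n = 4) beside the points. The controls lie at 0.114 or less on the left and at 2273 CPM or more on the right, apart from all 8 ischemic kidneys in both panels.

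The other proteases were Tpp1 and Lgmn. Tripeptidyl peptidase 1, lost in a neuronal ceroid lipofuscinosis, fell 1.97-fold in set A (log2 -0.98 ± 0.24, adjusted p = 0.00468, edgeR) and 1.71-fold in set B (-0.78 ± 0.24, adjusted p = 0.0224). The fall in set B did not pass without control 3 or 4 or without replicate 3 or 4 of set B (log2 -0.74 to -0.63, adjusted p = 0.0574 to 0.0821). Legumain, the asparaginyl endopeptidase that matures cathepsins, was at 28.7 ± 1.18 CPM in the controls, 22.7 ± 3.85 CPM in the kidneys of set A and 34.9 ± 10.03 CPM in those of set B, and passed in neither set.

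Glycosidases, which trim glycans sugar by sugar, were the largest class. Of 11 tested, 6 fell in set A (54.5%, against 11.7% of all genes) and 5 in set B (45.5%, against 11.9%), with medians of -1.17 and -1.06 on the log2 scale, and none rose. Glb1 (mm10 chr9:114401076-114474898, plus strand), the beta-galactosidase lost in GM1 gangliosidosis, was measured at 70.6, 60.3, 82.9 and 69.2 CPM in the controls, 20.2, 19.3, 12.7 and 14.3 CPM in the kidneys of set A and 17.6, 16.8, 18.1 and 18.6 CPM in those of set B. The highest ischemic kidney was far below the lowest control, and the level was 4.25-fold lower in set A (log2 -2.09 ± 0.22, adjusted p = 6.30e-07, edgeR) and 3.98-fold lower in set B (-1.99 ± 0.22, adjusted p = 1.21e-06). Tmppe lies on the same strand over 5.49% of its exonic bases.

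Fuca1 (mm10 chr4:135920735-135940311, plus strand), the fucosidase of the lysosome, had the next highest level per kilobase after Ctsa in the controls. It stood at 243, 215, 199 and 279.7 CPM in the controls, 114, 109.6, 94.01 and 87.2 CPM in the kidneys of set A and 94.5, 65.1, 105 and 65.5 CPM in those of set B. All 8 ischemic kidneys were below the controls, while sets A and B overlapped, and the fall was -1.21 ± 0.18 on the log2 scale in set A (adjusted p = 3.12e-05, edgeR) and -1.50 ± 0.18 in set B (adjusted p = 2.70e-06). Gaa, the acid alpha-glucosidase that degrades glycogen and is lost in Pompe disease, was 3.04-fold lower in set A (adjusted p = 2.72e-04) and 2.04-fold lower in set B (adjusted p = 0.0103). Man2b1, an alpha-mannosidase of N-glycan breakdown, was 2.37-fold (adjusted p = 4.35e-04) and 2.09-fold lower (adjusted p = 0.00187), with all ischemic kidneys of both genes below the controls.

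Neu1, the sialidase that removes terminal sialic acids, was at 88.6 ± 18.8 CPM in the controls, 41.2 ± 18.7 CPM in the kidneys of set A and 30.4 ± 12.2 CPM in those of set B. Its log2 fold change was -1.10 ± 0.32 in set A (adjusted p = 0.0147, edgeR) and -1.54 ± 0.32 in set B (adjusted p = 0.00121), although 1 kidney of set A overlapped the controls. Without control 1 or replicate 3 of set A the fall in that set missed the threshold (log2 -0.99 and -1.02, adjusted p = 0.0555 and 0.0572).

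Hexa encodes the alpha subunit of beta-hexosaminidase A, whose loss causes Tay-Sachs disease. Its level was 38.8, 39.02, 39.2 and 32.2 CPM in the controls, 25.7, 20.7, 14.4 and 20.8 CPM in the kidneys of set A and 31.7, 26.6, 28.1 and 12.95 CPM in those of set B. No ischemic kidney reached the lowest control, and the fall passed the test in set A (log2 -0.87 ± 0.28, adjusted p = 0.0276, edgeR) but not in set B (-0.58 ± 0.28, adjusted p = 0.146); between the sets the difference was 0.29 ± 0.28 (unadjusted p = 0.310). Without control 1, 2 or 3 or replicate 2 or 3 of set A the call in set A was lost (log2 -0.88 to -0.73, adjusted p = 0.0527 to 0.108).

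Gusb, the beta-glucuronidase, served as one of the reference genes for PCR in the study. It was measured at 0.144, 2.50, 1.35 and 0 CPM in the controls, 0.889, 0, 0 and 3.25 CPM in the kidneys of set A and 4.72, 0, 0 and 4.06 CPM in those of set B. Each group held kidneys at 0 and kidneys above 2 CPM, so these counts allow no statement on its change (log2 0.04 ± 2.11 and 1.13 ± 2.13, with a sign that depends on the replicate block and on limma-trend). Gla, the alpha-galactosidase lost in Fabry disease, had no counts in 6 of the 12 kidneys and reached 7.40 CPM in 1 kidney of set B. Idua was at 0, 0.520, 0.386 and 0.758 CPM in the controls, 0.127, 0, 0 and 0 CPM in the kidneys of set A and 0, 0.380, 0 and 0 CPM in those of set B. Naglu, an acetylglucosaminidase of heparan sulfate, gave -1.17 ± 0.71 and -1.55 ± 0.72 without passing the test, and Manba and Aga, further enzymes of N-glycan breakdown, passed in neither set.

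**Figure D3:**
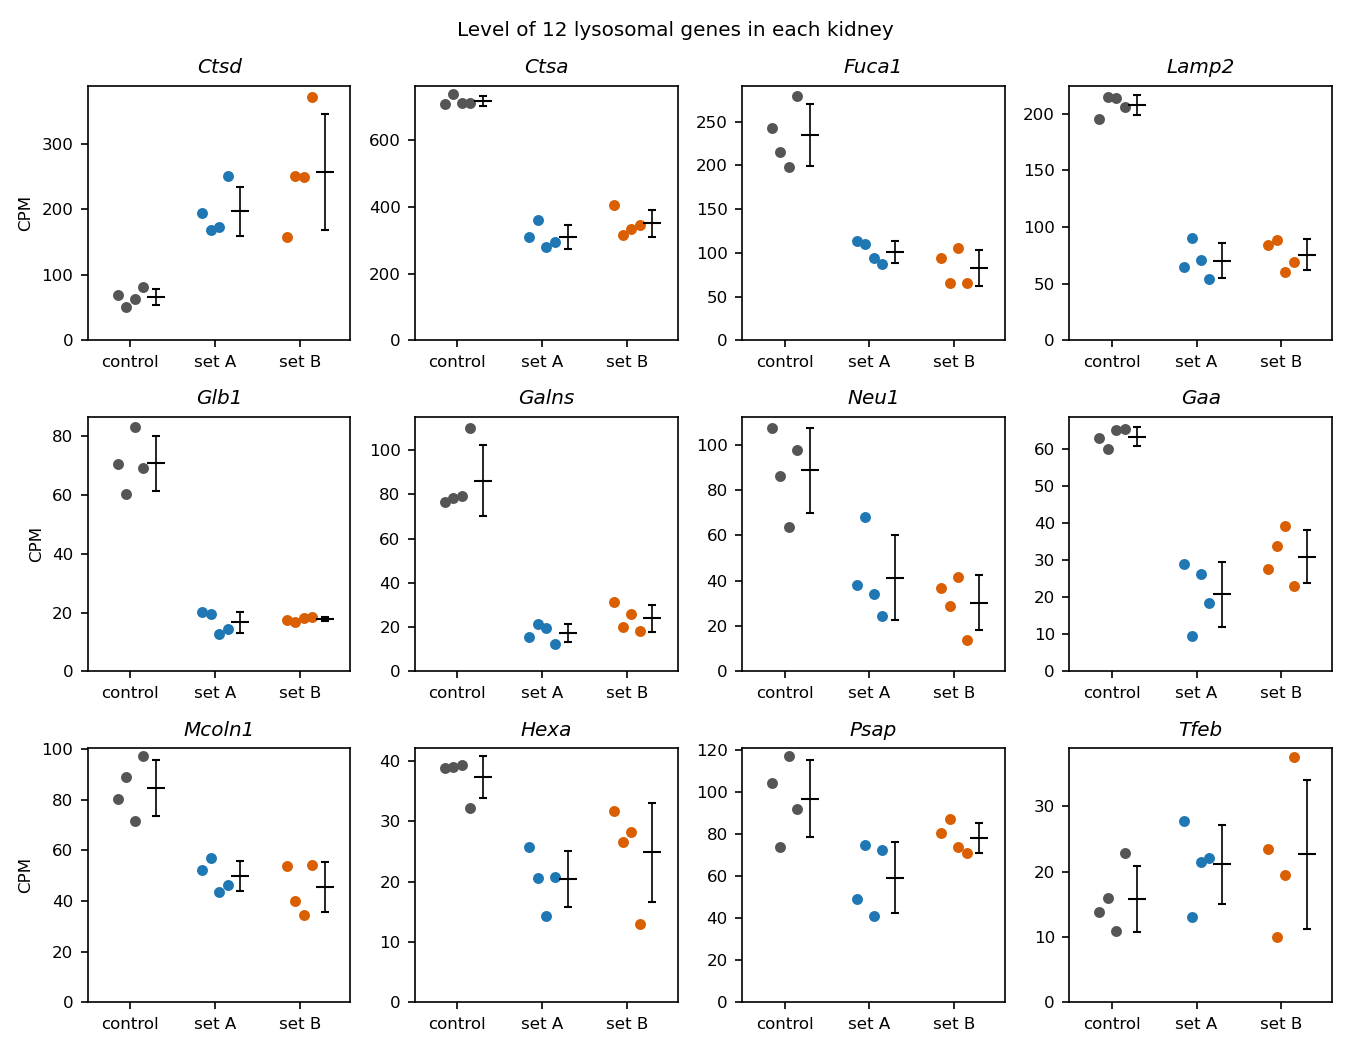
CPM of 12 lysosomal genes in each kidney, 1 panel per gene with its own y axis from 0, 1 point per kidney and the mean ± SD of each group (n = 4). In the panels of Ctsa, Fuca1, Lamp2, Glb1, Galns, Gaa, Mcoln1 and Hexa all ischemic kidneys lie below the controls, in that of Ctsd all lie above, and in those of Neu1, Psap and Tfeb the groups overlap.

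Among the 5 sulfatases, Galns (mm10 chr8:122578242-122611463, minus strand) fell the most in set A of all members that passed the test. It removes sulfate from keratan sulfate and chondroitin 6-sulfate. Its level was 76.6, 78.4, 79.2 and 110.0 CPM in the controls, 15.4, 21.6, 19.6 and 12.6 CPM in the kidneys of set A and 31.2, 20.1, 26.1 and 18.3 CPM in those of set B. The ischemic kidneys all lay well below the controls, and the fall was 4.97-fold in set A (log2 -2.31 ± 0.24, adjusted p = 5.28e-07, edgeR) and 3.59-fold in set B (-1.84 ± 0.24, adjusted p = 7.75e-06). Arsb, which acts on dermatan sulfate, was at 6.43, 10.8, 9.18 and 12.05 CPM in the controls, 4.95, 3.98, 0.925 and 1.69 CPM in the kidneys of set A and 1.89, 1.14, 0.919 and 0 CPM in those of set B. Its fall passed in set B (log2 -3.27 ± 0.95, adjusted p = 0.0159) and missed the threshold in set A (-1.73 ± 0.89, adjusted p = 0.193), while the difference between the sets was -1.53 ± 0.89 (unadjusted p = 0.102). Without control 4 the call in set B was lost (log2 -3.14, adjusted p = 0.0516). Ids and Sgsh, which act on heparan sulfate, and Arsa, the sulfatase of myelin sulfatide, had negative fitted values in both sets and passed in neither.

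Galns, Glb1, Neu1 and Ctsa, which associate in the lysosome in a complex held together by cathepsin A, are all among the 12 members that fell in both sets. They were grouped with these values known, so the grouping adds nothing to the values of the single genes. Of the 8 tested genes of glycosaminoglycan breakdown 3 fell in each set and 2 in both. The 7 genes of N-glycan breakdown held 5 falls for set A and 4 for set B, and the 9 genes of sphingolipid breakdown 5 and 2, where 11.7% of all genes fell in set A, 11.9% in set B and 9.49% in both. Some genes, such as Glb1 and Hexa, belong to more than 1 of these groups.

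The genes of lipid breakdown had lower fitted values in both sets but passed the test unevenly, 3 of 5 in set A (60.0%, against 11.7% of all genes) and 1 of 5 in set B (20.0%, against 11.9%). Lipa, the acid lipase of cholesteryl esters, was at 21.1 ± 4.65 CPM in the controls, 9.19 ± 1.40 CPM in the kidneys of set A and 9.15 ± 4.75 CPM in those of set B, and fell in both sets (log2 -1.20 ± 0.38 and -1.20 ± 0.38, adjusted p = 0.0285 and 0.0279, edgeR). Its adjusted p lay close to the threshold in both sets. The call was lost in set A without control 1, 2 or 3 or replicate 1, 2 or 3 of that set (log2 -1.25 to -1.08, adjusted p = 0.0507 to 0.0950), and in set B without control 1, 2 or 3 or replicate 2, 3 or 4 of that set (log2 -1.24 to -1.02, adjusted p = 0.0510 to 0.0894), while its direction stayed.

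Psap encodes prosaposin, the precursor of the saposins that present sphingolipids to their hydrolases. Its level was 104, 74.1, 117 and 92.1 CPM in the controls, 49.2, 74.9, 41.02 and 72.6 CPM in the kidneys of set A and 80.5, 87.1, 73.9 and 71.2 CPM in those of set B. The groups overlapped, and the fall passed in set A (log2 -0.71 ± 0.20, adjusted p = 0.0144, edgeR) but not in set B (-0.31 ± 0.20, adjusted p = 0.326), with a difference between the sets of 0.40 ± 0.20 (unadjusted p = 0.0633). Without control 3 or replicate 1 or 3 of set A it passed in neither (log2 -0.62 to -0.56, adjusted p = 0.0508 to 0.0652 in set A). Smpd1, the acid sphingomyelinase lost in Niemann-Pick disease types A and B, was at 36.3, 61.7, 42.8 and 49.2 CPM in the controls, 20.3, 23.5, 19.1 and 13.9 CPM in the kidneys of set A and 29.2, 26.6, 14.7 and 48.95 CPM in those of set B. Set A lay below the controls throughout and Smpd1 fell there 2.47-fold (adjusted p = 0.00338), while replicate 4 of set B reached the level of the controls; set B gave -0.67 ± 0.30 (adjusted p = 0.126), and -1.02 (adjusted p = 0.0130) without that kidney. Asah1, the acid ceramidase, and Gm2a, the activator that lifts GM2 ganglioside for Hexa, passed in neither set.

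The pair of proteins that export cholesterol from the lysosome, both lost in Niemann-Pick disease type C, showed no change that passed. Npc1, the membrane transporter, was at 3.26, 5.56, 7.56 and 6.27 CPM in the controls, 5.75, 8.73, 7.38 and 6.51 CPM in the kidneys of set A and 7.72, 6.45, 3.34 and 3.49 CPM in those of set B. The 3 groups overlapped, and the log2 difference from the controls was 0.32 ± 0.53 for set A and -0.11 ± 0.53 for set B. Npc2, the soluble carrier, was at 0, 2.70, 2.08 and 1.28 CPM in the controls, 0.794, 0, 0 and 0 CPM in the kidneys of set A and 0, 0.759, 0 and 0 CPM in those of set B. It had counts in 3 of 4 controls and in 1 of 4 kidneys of each ischemic set, and its fitted differences carried standard errors of over 2.5 on the log2 scale.

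Of the 5 other membrane proteins 2 fell in set A (40.0%, against 11.7% of all genes) and 3 in set B (60.0%, against 11.9%). Lamp2 (mm10 chrX:38401357-38456454, minus strand), a heavily glycosylated coat protein needed for autophagosome fusion and lost in Danon disease, was at 195, 214, 214 and 206 CPM in the controls, 65.02, 90.6, 71.03 and 54.2 CPM in the kidneys of set A and 84.5, 88.8, 60.2 and 68.95 CPM in those of set B. The ischemic kidneys all lay far below the controls, and Lamp2 fell 2.95-fold in set A (log2 -1.56 ± 0.17, adjusted p = 1.03e-06, edgeR) and 2.74-fold in set B (-1.46 ± 0.17, adjusted p = 2.64e-06). Lamp1, its close relative, was at 73.6, 81.9, 74.9 and 61.8 CPM in the controls, 51.7, 53.3, 43.6 and 47.9 CPM in the kidneys of set A and 43.9, 47.8, 64.9 and 25.7 CPM in those of set B. Replicate 3 of set B overlapped the controls, and the fall passed in set B (log2 -0.68 ± 0.23, adjusted p = 0.0344) and not in set A (-0.57 ± 0.22, adjusted p = 0.0779). The call in set B was lost in a fit of the 2 groups alone (adjusted p = 0.0627) and without control 1, 2 or 3, replicate 1 of set A or replicate 1, 2 or 4 of set B (log2 -0.72 to -0.49, adjusted p = 0.0510 to 0.0945). In set A the call was gained in a fit of the 2 groups alone (0.0213) and without replicate 3 or 4 of set B (0.0459 and 0.0200).

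Mcoln1, the calcium channel of the lysosomal membrane that signals to TFEB, was at 84.6 ± 11.01 CPM in the controls, 49.8 ± 5.90 CPM in the kidneys of set A and 45.6 ± 9.93 CPM in those of set B. All ischemic kidneys were below the controls (log2 -0.76 ± 0.19 and -0.89 ± 0.19, adjusted p = 0.00570 and 0.00165, edgeR). Cd63, a tetraspanin of lysosomes and exosomes with a pseudogene copy in the annotation, was at 118 ± 9.50 CPM in the controls, 137 ± 20.4 CPM in the kidneys of set A and 134 ± 11.05 CPM in those of set B. Its log2 difference of 0.21 ± 0.14 and 0.18 ± 0.14 did not pass in either set, with standard errors among the smallest of the 40 genes. Scarb2, the receptor that carries beta-glucocerebrosidase to the lysosome, gave 0.55 ± 0.58 and 1.34 ± 0.59 from levels under 13 CPM and did not pass with edgeR.

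Tfeb itself did not pass the test. Its level was 13.9, 15.9, 10.9 and 22.8 CPM in the controls, 27.8, 13.1, 21.5 and 22.05 CPM in the kidneys of set A and 23.5, 9.996, 19.5 and 37.5 CPM in those of set B. The groups overlapped widely, and the log2 difference was 0.41 ± 0.37 in set A (adjusted p = 0.533, edgeR) and 0.51 ± 0.37 in set B (adjusted p = 0.392). TFEB is controlled mainly through its phosphorylation and its entry into the nucleus, which RNA levels do not show.

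**Figure D4:**
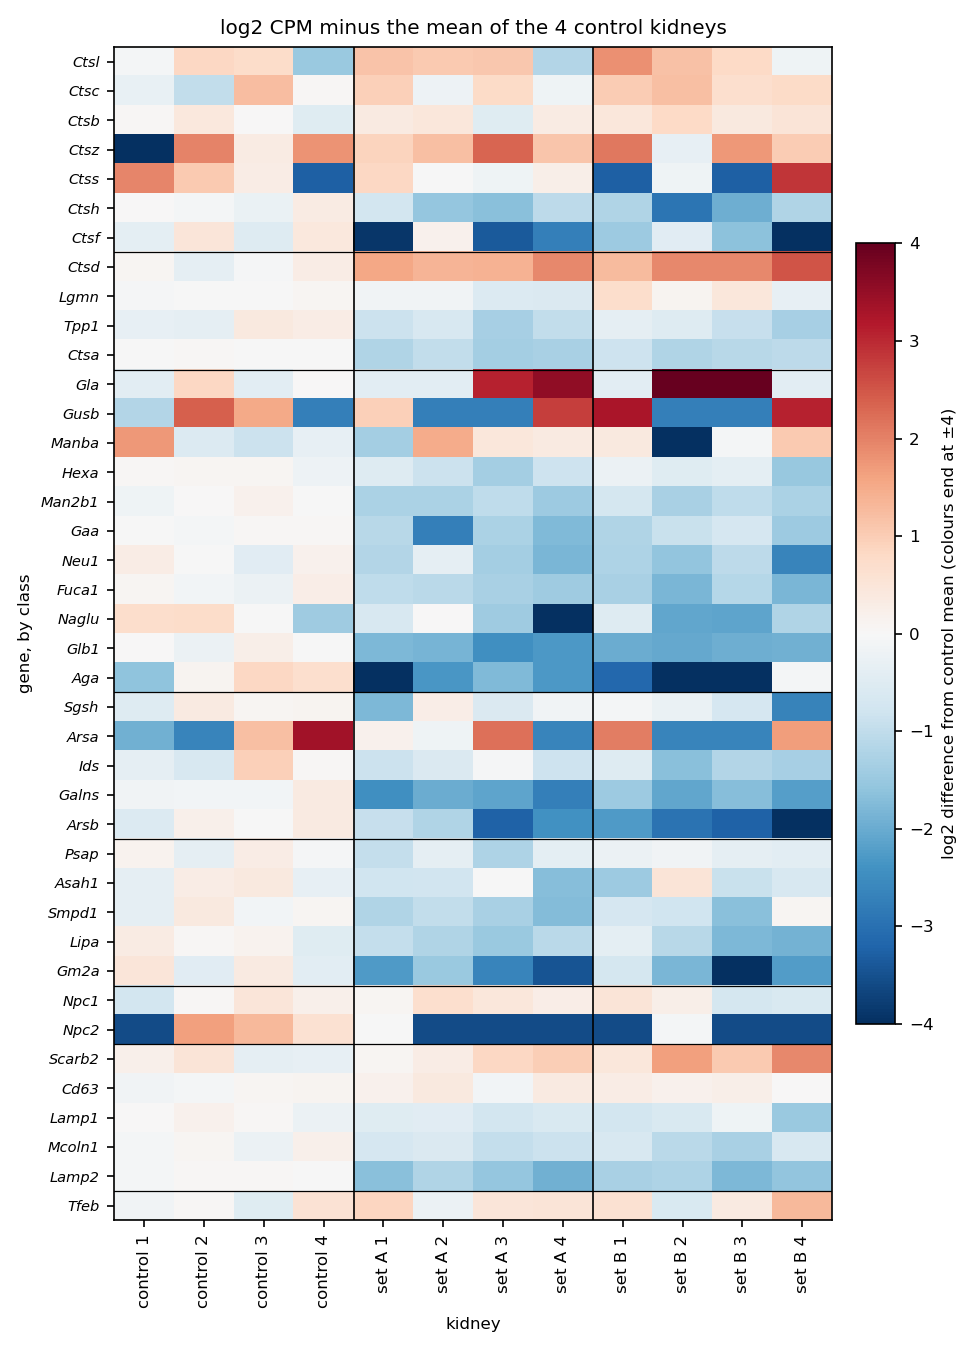
Difference of log2 CPM (colour, with limits of ±4, prior count 2) from the mean of the 4 controls for the 40 tested lysosomal genes (rows, by class) in each of the 12 kidneys (columns). The rows of Ctsa, Glb1, Galns and Lamp2 are blue in all 8 ischemic kidneys, that of Ctsd is red, and the rows of genes at or near 0 counts such as Gusb and Arsa change colour between kidneys of the same group.

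Levels of different genes were compared per kilobase of the union of exons. In the controls they ranged from 0.00996 CPM per kilobase for Gla to 152 for Ctsa. After Ctsa came Fuca1 with 71.5, Psap with 35.4, Galns with 32.5, Cd63 with 32.1 and Ctsd with 28.3 CPM per kilobase. Ctsd reached 83.7 CPM per kilobase in set A and 109 in set B, above the 65.8 and 74.2 of Ctsa, so that it had the highest mean level of the 41 genes in both ischemic sets. The order of neighbours is not firm where their kidneys overlap, as for Psap, Galns, Cd63 and Ctsd in the controls. Nor is the order of Ctsd and Ctsa after ischemia, as Ctsa was the higher per kilobase in replicate 2 of set A and replicate 1 of set B. Because a low count cannot be read as low expression in these libraries, the ranks describe counted reads only. The exon union can exceed the transcripts that are present in kidney, which lowers the value of a gene with many unused exons.

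**Figure D5:**
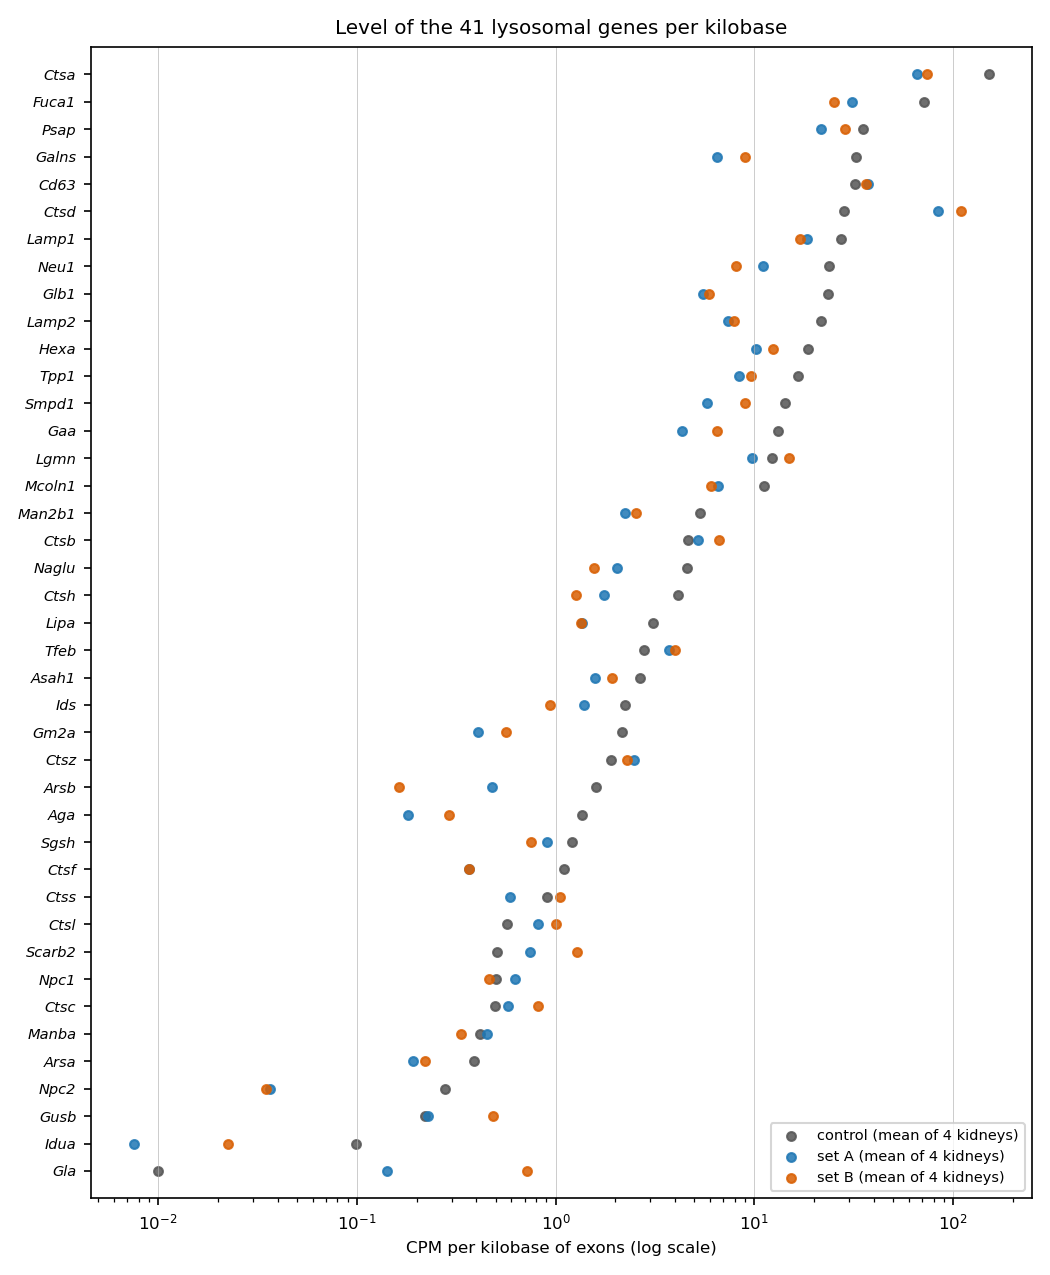
Mean CPM per kilobase of exons (x axis, log scale) of the 41 lysosomal genes, ordered by the control mean, in the controls (grey), set A (blue) and set B (orange), each the mean of 4 kidneys without error bars. Most orange and blue points in the upper part lie left of the grey one, and those of Ctsd lie right of it.

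No lysosomal gene passed the test between the ischemic sets. In set B against set A none of the 40 members passed the test with edgeR, where 0.00857% of all genes (1 gene) did, and none did with DESeq2. At an unadjusted p under 0.05 there were 2, against 5.03% of all genes. Lgmn was at 26.00, 26.1, 19.7 and 19.1 CPM in set A and 46.3, 31.1, 39.1 and 23.05 CPM in set B, a log2 difference of 0.62 ± 0.24 (unadjusted p = 0.0200, adjusted p = 0.941, edgeR), and Smpd1 gave 0.63 ± 0.30 (unadjusted p = 0.0496, adjusted p = 0.983). The kidneys of the sets overlapped for both genes, and replicate 4 of set B was the lowest of its set for Lgmn and the highest for Smpd1. The median over the 40 members was 0.18 and that over all genes -0.01 on the log2 scale. The standard error of this difference ran from 0.12 (Ctsa) to 2.35 (Npc2), which limits how small a difference 4 kidneys against 4 could show.

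Other genes of the lysosome and of its supply were counted in lists set up with earlier results known. Of 31 tested further lysosomal enzymes and activators, 10 fell in each set (32.3%), while 0 and 1 rose, with medians of -0.94 and -1.09. Of all genes tested, 11.7% fell and 10.5% rose in set A, and 11.9% fell and 10.9% rose in set B. Smpdl3a, a phosphodiesterase related to acid sphingomyelinase (-2.26 ± 0.33 and -2.73 ± 0.34 on the log2 scale), and Fuca2, a secreted fucosidase (-2.15 ± 0.69 and -2.12 ± 0.69), fell in both sets. Of 25 further membrane proteins and transporters 5 fell and 1 rose in set A, and 4 fell and 0 rose in set B, among them the amino acid exporter Slc36a1 (-1.60 ± 0.36 and -1.26 ± 0.36).

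Of 22 subunits of the vacuolar proton pump, which acidifies the lysosome and, in intercalated cells, the urine, 7 fell and 1 rose in set A and 4 fell and 1 rose in set B. The shares over all genes were 11.7% lower and 10.5% higher in set A, and 11.9% and 10.9% in set B. The catalytic subunit Atp6v1a fell 2.42-fold and 2.38-fold (adjusted p = 1.28e-05 and 1.68e-05, edgeR), whereas Atp6v0a1 rose 1.83-fold and 1.68-fold (adjusted p = 9.29e-04 and 0.00361). Of 19 genes of mannose 6-phosphate tagging and sorting 5 fell in set A, 3 fell in set B and none rose. The cation-dependent receptor M6pr went from 238 ± 40.1 CPM to 166 ± 9.70 and 168 ± 22.5 CPM, a fall in both sets (adjusted p = 0.0114 and 0.0152).

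Of 24 genes of the MiT/TFE factors, mTORC1 and the Ragulator, the complexes that tether TFEB to the lysosome and phosphorylate it, 8 fell and 1 rose in set A and 6 fell and 0 rose in set B. Beside them, 11.7% of all genes fell and 10.5% rose in set A, and 11.9% and 10.9% in set B. Tfec, a relative of Tfeb, fell from 46.5 ± 0.333 CPM to 11.8 ± 2.55 and 19.5 ± 8.59 CPM (adjusted p = 1.35e-04 and 0.00674, edgeR). Mtor, the kinase, fell 2.58-fold and 2.48-fold (adjusted p = 2.18e-06 and 3.67e-06). Its level in the controls, 139 CPM per kilobase of exons, was close to the 152 of Ctsa and unusually high for this kinase, so its value is in doubt; how its reads were counted is not given in the sources used here. Lamtor5, a Ragulator subunit, fell 2.50-fold and 2.20-fold. The 1 that rose, in set A, was Tfe3, a further relative of Tfeb (1.08 ± 0.30, adjusted p = 0.0117), which gave 0.74 ± 0.30 in set B (adjusted p = 0.0820); it is named here after its values were seen.

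Of 33 genes of autophagy and lysosome fusion 10 fell and 2 rose in set A, and 8 fell and 2 rose in set B. Among all genes, 11.7% fell and 10.5% rose in set A, and 11.9% fell and 10.9% rose in set B. Gabarapl1, which joins the membrane of the autophagosome, fell from 1012 ± 103 CPM to 229.7 ± 32.6 and 220.3 ± 44.9 CPM, 4.41-fold and 4.59-fold (adjusted p = 4.04e-09 and 2.85e-09, edgeR). Atg7, the enzyme that starts both conjugation systems of autophagy, rose 1.95-fold and 1.86-fold (adjusted p = 0.00953 and 0.0156). Of 12 cathepsin inhibitors 3 could be tested. Serpinb6a alone passed in both sets (9.07% of all genes were higher in both), with means of 0.111 CPM in the controls and 4.68 and 3.74 CPM in sets A and B, but only 1 control against 7 ischemic kidneys reached the level of the filter on low counts, so nothing is read from its call. Median log2 fold changes of these lists lay between -0.49 and -0.09 except for the enzymes and the inhibitors, and the share of each list that fell in set A, 20.0% to 33.3% in the 6 lists other than the inhibitors, stands beside the 11.7% of all genes; in set B it was 15.8% to 32.3%, beside 11.9%.

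Among the markers of other cell types and states, most of those of tubular injury that could be read rose in both sets, and most of those of immune cells could not be tested. Of 16 macrophage markers 8 could be tested, 1 of which was called higher (Cd14) and 1 lower (Csf1r) in each set, beside 10.5% and 11.7% of all genes in set A and 10.9% and 11.9% in set B. No control reached the level of the filter for Cd14, so nothing is read from its call. The median log2 fold change of the 8 came to 0.46 for set A and -0.38 for set B. The summed level of the macrophage markers, most of which was Csf1r in the controls, was 54.2 to 73.7 CPM per control kidney, 16.2 to 40.5 CPM per kidney of set A and 6.29 to 48.8 CPM per kidney of set B, with 1 marker (Tyrobp) at 0 in all kidneys, and Csf1r, the receptor that macrophages need to survive, went from 52.1 ± 9.05 CPM to 13.5 ± 5.25 and 10.5 ± 6.53 CPM. Of 8 neutrophil markers in the table none could be tested and 5 were at 0 in all kidneys (S100a8, Mpo, Retnlg, Camp, Ltf), with sums of at most 2.67 CPM. Of 8 lymphocyte markers 1 could be tested, Cd3e, with a mean of 1.83 CPM in the controls and 0 in all ischemic kidneys, which passed the filter through the controls alone, and 6 were at 0 in all kidneys. Of 9 tubular injury markers 3 (Havcr1, Lcn2 and Krt20) passed the filter through ischemic kidneys alone, so nothing is read from their calls. Of the other 6, 5 rose in both sets (9.07% of all genes did). The sum of all 9 was 242 to 291 CPM per control kidney, 2705 to 2937 CPM per kidney of set A and 2216 to 2689 CPM per kidney of set B. It includes Havcr1, Lcn2 and Krt20, so nothing is read from it either. Of 12 markers of other kidney cells 1 rose and 2 fell (16.7%) in set A and 1 rose and 1 fell (8.33%) in set B. The part of any of these cell types in the lysosomal values, the rise of Ctsd included, was not tested.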

How the data were processed

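Stranded mRNA libraries from 12 kidneys were sequenced by the authors as single reads of 100 bases, mapped to mm10 with STAR and counted per gene with HTSeq. The deposited values are raw counts of 23420 genes, without normalization. Tool versions, the annotation and the strand setting are not given in the sources used here. Samples were grouped by their titles.

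The analysis used edgeR 4.0.16 (R 4.3.3). Low genes were filtered out (minimum count 10, minimum total 15), which left 11664, libraries were scaled by TMM (factors 0.968 to 1.03), and 1 model with 3 group coefficients was fitted to all 12 kidneys. Two-sided quasi-likelihood F-tests were adjusted by Benjamini-Hochberg over all genes tested (threshold 0.05). Standard errors were derived from each test, as the absolute log2 fold change divided by the square root of F. Heat map values are log2 CPM with a prior count of 2. Exon lengths came from GENCODE M21. Python 3.11.15, pandas 2.3.3, NumPy 2.4.6 and matplotlib 3.10.9 served for the rest. No pair of replicates agreed within sampling noise (chi-square per degree of freedom at least 48.9). The test was checked on simulated counts.

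The alternatives were RLE size factors, total counts, no filter, a filter that asked 4 kidneys to exceed 1 CPM, a fit of 2 groups at a time, limma-trend (limma 3.58.1), a block for the replicate number, DESeq2 1.42.0 and leaving out each kidney. CPM in every kidney was given for members called in both sets with the 5 largest falls and rises, and for Tfeb, Gusb, Hexa, Lamp1, Psap, Npc1 and Npc2 whatever their values; between the sets, members with an unadjusted p under 0.05 were named, and from other lists at most 3 genes with the largest changes in both sets, apart from results not reported here. Others were named after their values were seen. The members and lists were chosen with earlier results of these data known.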

Additional observations from a re-analysis of the deposited data

Results flagged for a closer look

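Single kidneys lay apart from the other 3 of their group in 10 of 123 sets of 4 kidneys, by Dixon's criterion at the 95% level, where chance gives about 1 in 20. Among the well-detected genes, Ctsa was 738 CPM in control 2 (the other controls 708 to 711), Galns 110.0 CPM in control 4 (76.6 to 79.2), Hexa 32.2 CPM in control 4 (38.8 to 39.2) and Ctsb 19.5 CPM in replicate 3 of set A (34.8 to 37.3). At low counts, Ctsl was 1.33 CPM (22 counts) in replicate 4 of set A against 6.42 to 6.83 in the others, and Aga was 0 CPM in replicate 1 of set A against 0.471 to 0.727. Idua had counts in 1 kidney of each ischemic set, 0.127 CPM in replicate 1 of set A and 0.380 CPM in replicate 2 of set B, and so did Npc2, with 0.794 CPM and 0.759 CPM in the same kidneys, the others being at 0.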

How the results depend on the processing

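Each of the 80 log2 fold changes of members against control, and the 2 between the sets, was recomputed under 20 alternatives, which gave 1634 values. Of these 1547 kept their direction and their side of the threshold, 47 lost it, 11 gained it and 29 changed direction, none of the latter in a member that had passed the test. Of 16 members that passed in set A 11 passed in every alternative, and of 15 in set B also 11; the exceptions (Ctsh, Hexa, Lipa, Neu1 and Psap in set A, Arsb, Lamp1, Lipa and Tpp1 in set B) are given with their values in the text. The numbers of lysosomal genes that fell stayed within 1.5 times those reported. DESeq2 called 3 instead of 1 higher in set B, Gla among them. The median over the members in set B was -0.90 with limma-trend and -0.95 to -0.67 with 1 kidney left out, and between the sets 0.040 to 0.25 with 1 left out. Between the sets 6 genes of the whole table passed without the filter, 0 with only the 2 groups, 0 with limma-trend, 27 with DESeq2 and 0 to 7 with 1 kidney left out, none of them a lysosomal gene.

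Signs changed for genes with few counts: Gusb in set A to -5.75 with the replicate block and -0.44 with limma-trend, and in set B to -4.55 with the block; Arsa in set A to 1.27 with the block; Ctss to 0.22 with limma-trend in set A and, in set B, -0.97 with limma-trend and -1.49 with the block. With 1 kidney left out, set A gave -1.03 to 0.13 for Ctss, -0.051 to 0.84 for Ctsz, -1.76 to 1.05 for Gusb, -0.040 to 0.79 for Ctsc, -0.41 to 1.16 for Manba and -2.40 to 1.03 for Arsa, and set B -2.70 to 0.92 for Ctss, -0.15 to 0.71 for Ctsz, -0.84 to 0.70 for Manba, -0.37 to 0.043 for Npc1 and -1.64 to 1.21 for Arsa. The cause of these changes was not tested. The groups share replicate numbers 1 to 4, but same-numbered kidneys did not deviate together (correlations of -0.055 to 0.045), so the block is only a formal alternative; with it 15 members fell in set A and 14 in set B, 1 rose in each, the medians were -0.84, -0.85 and, between the sets, 0.14, and 2491, 2531 and 1 genes of the whole table passed. Low counts limit the 12 members with a kidney at 3 counts or fewer; of these Gm2a passed in set A with only the 2 groups, with DESeq2 and without replicate 3 of set B, Arsb in set A with only the 2 groups, and Gla in set B with DESeq2, as did Ids and Scarb2.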
